A study of Mus musculus with 16 samples.

Results

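The SOCS family consists of 8 genes, Socs1 to Socs7 and Cish, which were taken by symbol from the 55291 genes of the count table. All 8 were found, and all 8 passed the filter on low counts, as did 22749 genes in all. RNA was sequenced from bone marrow LSK cells of C57BL/6 mice, a stem and progenitor fraction that lacks lineage markers and carries c-Kit and Sca-1, here enriched with beads. There were 4 individual mice in each of 4 genotypes, and the title of the series asks what the Srsf2 mutation does to leukaemia driven with the Asxl1 transgene. DM mice carried both lesions (Asxl1Y588XTg;Srsf2P95H/+), Srsf2P95H mice were heterozygous for a mutation of Srsf2, which encodes a splicing factor (Srsf2P95H/+), Asxl1Tg mice carried a mutant Asxl1 transgene (Asxl1Y588XTg; Asxl1 is a chromatin regulator), and WT mice carried neither. The sources used here give no age, sex, batch or promoter of the transgene. The design text names 3 DM mice; 4 are labelled and tabulated, and the 4 were kept.

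SOCS proteins are feedback inhibitors of cytokine signalling. A cytokine receptor activates JAK kinases, which phosphorylate STAT transcription factors, and STATs switch on Cish, Socs1, Socs2 and Socs3, whose products then bind the receptor or its kinase through an SH2 domain. The shared SOCS box recruits elongins and a cullin, so that bound proteins are marked for degradation. In blood-forming cells this circuit limits the response to thrombopoietin, erythropoietin, interferons and the colony-stimulating factors. Socs4 to Socs7 are the less studied members, and are linked mainly to receptor tyrosine kinase and insulin signalling.

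Libraries held 82.99 to 127.6 megacounts (M), and levels are given as CPM, counts per megacount after TMM scaling. The 12 stem and progenitor markers had counts in all 16 libraries, among them Kit at 699 to 1211 CPM and Ly6a, which encodes Sca-1, at 23.2 to 54.3 CPM. The T cell marker Cd3e stood at 0 to 0.266 CPM, whereas the 12 T and natural killer markers summed to 108 to 183 CPM. Sums were 233 to 907 CPM for 11 erythroid markers and 82.0 to 598 CPM for 10 monocyte and macrophage markers. For 10 mast cell and basophil markers they were 129 to 644 CPM. Low Cd3e thus does not show that mature cells were absent, and their share was not tested. WT 4 stood apart: its 9 eosinophil markers summed to 1580 CPM, against 42.8 to 311 CPM in the other WT libraries. Its 10 B lineage markers summed to 1260 CPM, against 235 to 303 CPM in the other WT libraries. Asxl1Tg 3 (1279 CPM) and DM 1 (942 CPM) also had high sums. In the mean log2 CPM of these markers WT 4 stood alone at 4.18, against at most 1.83 in any other library. The 25 immediate-early genes, which respond fast to stimulation and cell handling, summed to 1045 CPM in WT 4, the lowest of all libraries, and to 15727 CPM in Srsf2P95H 2, the highest. Xist, transcribed from inactive X chromosomes, was above 100 CPM in 5 libraries (DM 1, Srsf2P95H 2, Srsf2P95H 3, Asxl1Tg 3 and WT 1). The Asxl1 gene had 206 to 236 CPM over all 16 libraries with overlapping genotypes, so its count does not check the transgene labels, and the point mutation in Srsf2 cannot be seen in counts.

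Relative to transcript length, Socs3 was the most abundant family member in these cells on average, and Socs1, Socs2 and Cish were the scarcest. Per kb of exon (all exons of a gene in GENCODE M21, GRCm38), Socs3 averaged 13.8 CPM per kb over the 16 libraries, Socs4 10.8, Socs5 8.35 and Socs7 8.0 CPM per kb. Socs6 followed at 3.79, Cish at 1.66, Socs1 at 1.44 and Socs2 at 0.385 CPM per kb. The ranges over libraries of Socs5 (6.89 to 10.98 CPM per kb) and Socs7 (7.14 to 9.45 CPM per kb) overlapped, as did those of Cish (1.15 to 2.78) and Socs1 (1.01 to 2.60). Socs3 ran from 1.52 to 44.5 CPM per kb, so its place at the top did not hold in every library. The order depends on the length used. Per kb of main coding transcript Socs5 (11.5 CPM per kb) lay above Socs4 (10.8 CPM per kb). Socs2 has 14 annotated transcripts, and per kb of its main coding transcript (2222 bases, against 9531 bases of exon) it averaged 1.65 CPM per kb, above Socs1 at 1.44 CPM per kb.

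**Figure D1:**
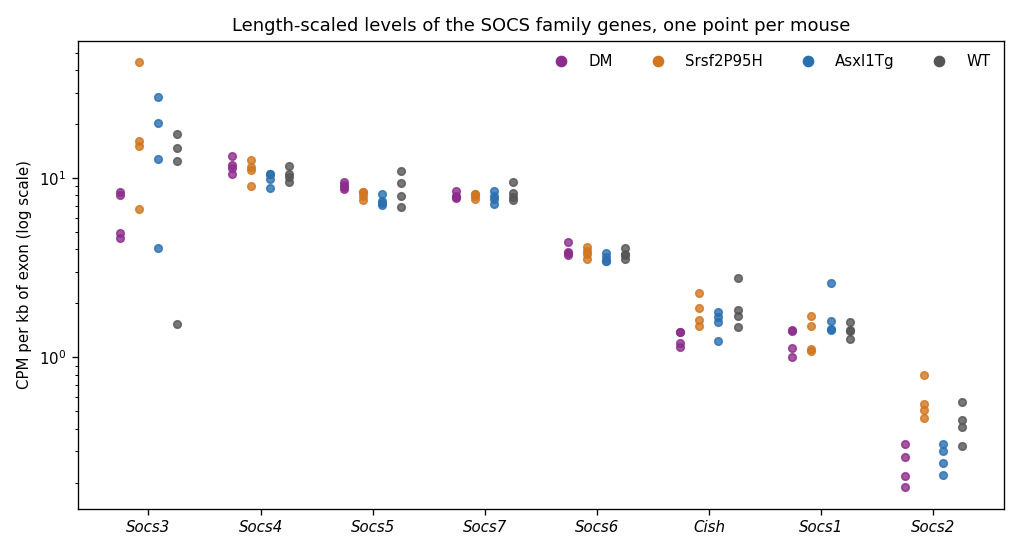
Length-scaled level of each SOCS family gene (CPM per kb of exon, log scale), 1 point per mouse, coloured by genotype in the order DM, Srsf2P95H, Asxl1Tg, WT. Socs3 spreads from 1.52 to 44.5 CPM per kb, whereas Socs4 to Socs7 form tight clouds and Socs2 lies lowest.

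The members also differed in how much they varied between mice. Socs3 had a 29.2-fold range over the 16 libraries. Its spread within genotypes (SD 1.19 on the log2 scale) was larger than that of 98.3% of the tested genes with a mean of at least 1 CPM. Socs2 ranged 4.24-fold, Socs1 2.58-fold and Cish 2.42-fold. Socs4 ranged 1.504-fold (60.5 to 90.9 CPM), Socs5 1.59-fold (44.2 to 70.4 CPM), Socs7 1.32-fold (51.9 to 68.7 CPM) and Socs6 1.27-fold (39.1 to 49.6 CPM). The 4 members known as STAT targets were thus the 4 with the widest ranges. The top of the Socs1 range was Asxl1Tg 4 at 7.55 CPM, and all other libraries were at 4.92 CPM or below. Socs1, Socs2 and Cish also had the lowest mean levels of the family, at 4.19, 3.67 and 10.6 CPM. The part of a low level in these ranges was not tested.

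**Figure D2:**
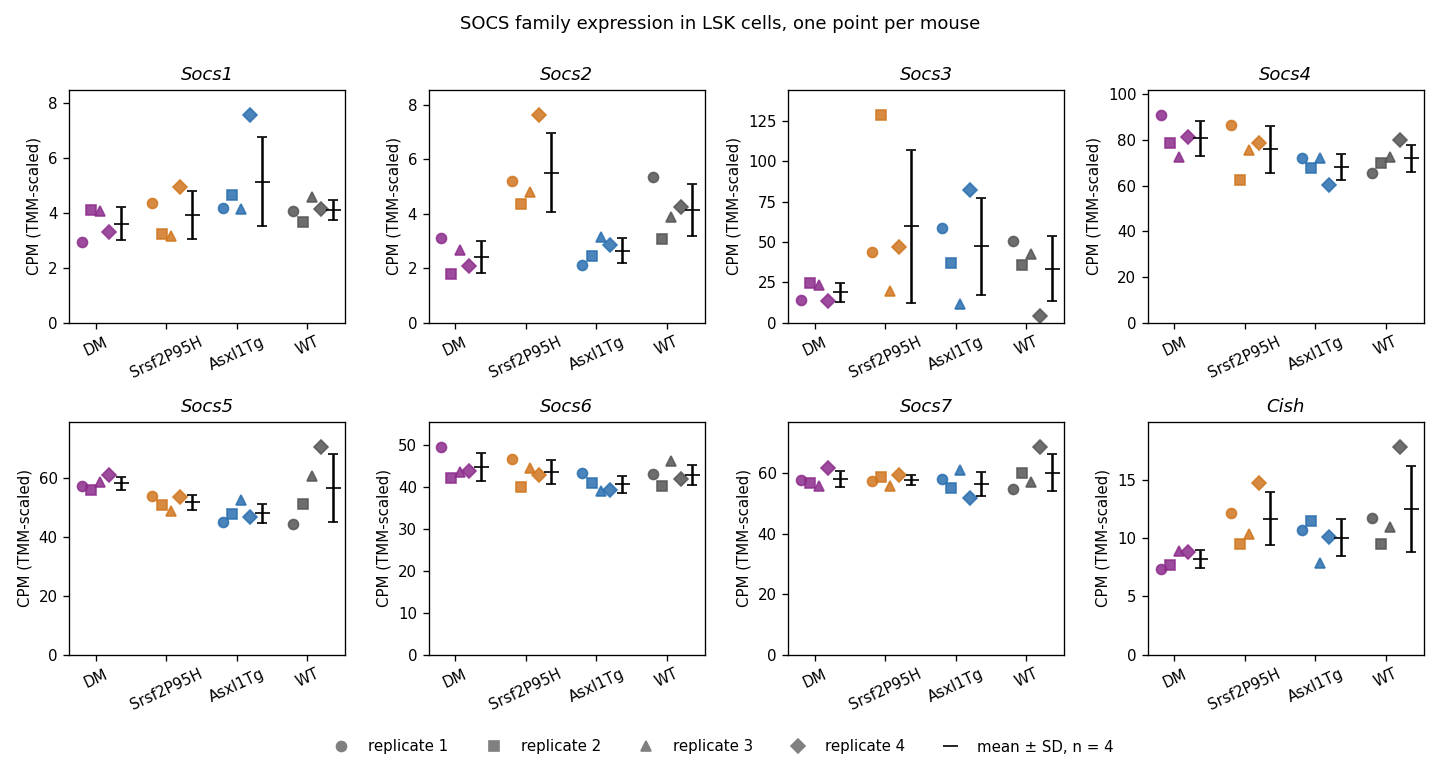
CPM of the 8 SOCS family genes in each mouse (points, shaped by replicate number) with the mean ± SD of each genotype (n = 4), in the order DM, Srsf2P95H, Asxl1Tg, WT. Socs2 is low in DM and Asxl1Tg, Cish is low in DM, Socs3 is scattered within 3 of the 4 genotypes, and Socs4 to Socs7 are near level.

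Socs2, whose product restrains growth hormone and other STAT5-activating receptors, was the member that followed genotype most closely. Its mean was lower with the Asxl1 transgene than without it, both with and without the Srsf2 mutation. Without that mutation the difference was not called, and with it the call was lost in some alternatives, as given below. In DM mice Socs2 was at 3.12, 1.80, 2.66 and 2.06 CPM. In Srsf2P95H mice it was at 5.20, 4.37, 4.82 and 7.62 CPM, in Asxl1Tg mice at 2.10, 2.44, 3.14 and 2.87 CPM, and in WT mice at 5.35, 3.06, 3.87 and 4.26 CPM. Every DM mouse was below every Srsf2P95H mouse, as in 1.42% of all genes. The ranges of DM and WT met, since DM 1 was above WT 2. These levels rest on 197 to 739 counts per library. The order of the means was Srsf2P95H, WT, Asxl1Tg and DM, and no neighbours in that order differed at an adjusted p under 0.05.

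Set side by side over both Srsf2 backgrounds, the 8 carriers of the Asxl1 transgene had Socs2 at 2.52 ± 0.507 CPM and the 8 non-carriers at 4.82 ± 1.35 CPM (SD, n = 8 each). The carriers ran from 1.80 to 3.14 CPM with a median of 2.55, and the non-carriers from 3.06 to 7.62 CPM with a median of 4.59. In 6 of the 8 carriers Socs2 was below all non-carriers, and in 7 of the 8 non-carriers it was above all carriers, with WT 2 as the exception. Socs2 fell 1.89-fold (log2 fold change -0.92, SE 0.16), and its adjusted p was 0.00478 by edgeR's quasi-likelihood test with Benjamini-Hochberg adjustment over 22749 genes, rank 146 of all genes by p. It was the only 1 of the 8 members called, against 1.85% of all genes called in this comparison and 0.444% called lower. All 25 alternative settings kept the call, with log2 fold changes of -1.01 to -0.82 and adjusted p from 1.75e-06 to 0.0144. Without WT 4 and Srsf2P95H 2, the libraries that stood apart, the value was -0.96 (adjusted p = 0.0103).

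The comparisons of single genotypes split this difference. In Asxl1Tg against WT, Socs2 had a log2 fold change of -0.65 (SE 0.23), which did not pass (edgeR adjusted p = 0.123). There 0 of 8 members were called by edgeR or DESeq2, against 1.88% of all genes called. At an unadjusted edgeR p under 0.05 there were 2 of 8 members, beside 4884 of 22749 genes. In DM against Srsf2P95H, Socs2 fell 2.28-fold (log2 fold change -1.19, SE 0.23, edgeR adjusted p = 0.0419) as 1 of 8 members called, against 0.246% of all genes and 0.0308% called lower. That call was lost without DM 2, 3 or 4, Srsf2P95H 1, 3 or 4, Asxl1Tg 2 or 4, or WT 3 (-1.25 to -0.99, adjusted p 0.0554 to 0.155), and without both WT 4 and Srsf2P95H 2 (-1.29, adjusted p = 0.0605). The difference between these effects is the interaction, which for Socs2 was -0.54 (SE 0.32, adjusted p = 0.529), so they were not shown to differ. The Srsf2 mutation had no call on Socs2, with a log2 fold change of 0.41 (SE 0.23, adjusted p = 0.271) in Srsf2P95H against WT and -0.13 (SE 0.23, adjusted p = 0.819) in DM against Asxl1Tg.

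**Figure D3:**
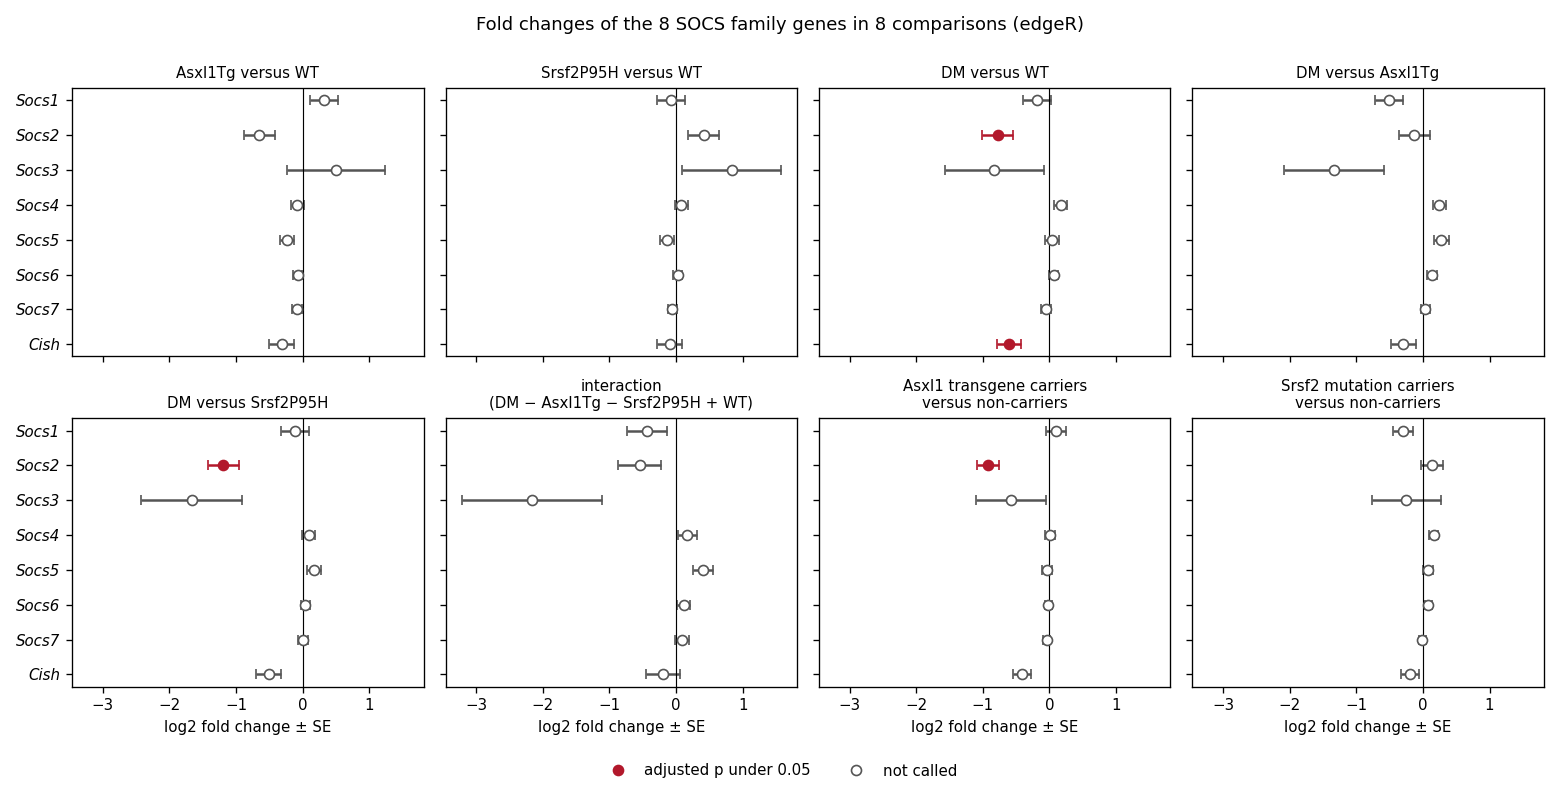
Log2 fold change ± SE of the 8 SOCS family genes in 8 comparisons from 1 edgeR fit over all genes, filled red where the adjusted p is under 0.05. Filled points are Socs2 in DM versus WT (-0.78), DM versus Srsf2P95H (-1.19) and Asxl1 transgene carriers versus non-carriers (-0.92), and Cish in DM versus WT (-0.61). Socs3 has the widest error bars in every comparison.

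DM against WT was the only comparison in which 2 members were called, Socs2 and Cish, both lower in DM. There 9.39% of all genes tested were called, 4.73% lower. A count of 2 of 8 is a larger share, but it rests on 2 genes, and whether it goes beyond the background was not tested. Socs2 fell 1.72-fold (log2 fold change -0.78, SE 0.23, edgeR adjusted p = 0.0447). Cish fell 1.52-fold (log2 fold change -0.61, SE 0.18, edgeR adjusted p = 0.0481). Both values lie close to the threshold. The Socs2 call was lost without DM 1, 2 or 4, Srsf2P95H 1 or 3, Asxl1Tg 4, or WT 1, 3 or 4, at values of -0.93 to -0.63 (adjusted p 0.0528 to 0.124), and without both WT 4 and Srsf2P95H 2 (-0.76, adjusted p = 0.0738).

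Cish encodes CIS, the first SOCS protein described, which binds phosphorylated receptors and competes with STAT5. In DM mice it was at 7.37, 7.74, 8.90 and 8.86 CPM. In Srsf2P95H mice it was at 12.1, 9.54, 10.4 and 14.7 CPM, in Asxl1Tg mice at 10.7, 11.5, 7.88 and 10.1 CPM, and in WT mice at 11.8, 9.53, 10.9 and 17.8 CPM. All 4 DM mice were below all Srsf2P95H and all WT mice, and Asxl1Tg 3 was within the DM range. Of all genes, 9.35% had all DM libraries below all WT libraries, and 1.42% had all DM libraries below all Srsf2P95H libraries. In DM against Srsf2P95H, Cish had a log2 fold change of -0.51 (SE 0.18, edgeR adjusted p = 0.517).

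WT 4, the library with the highest eosinophil marker level, held the highest Cish level of all 16, whereas Asxl1Tg 3, with the highest summed B lineage level, had Cish at 7.88 CPM. Without WT 4 the DM against WT value of Cish was -0.39 (edgeR adjusted p = 0.159). Without both WT 4 and Srsf2P95H 2 it was -0.39 (adjusted p = 0.128). The part of eosinophils or B lineage cells in the result was not tested. The call was also lost without any single DM library, Srsf2P95H 1 or 3, Asxl1Tg 1 or 4, or WT 1 or 3 (-0.67 to -0.56, adjusted p 0.0519 to 0.137). Over the 8 transgene carriers against the 8 non-carriers, Cish was at 9.14 ± 1.51 against 12.1 ± 2.86 CPM (SD, n = 8 each), a log2 fold change of -0.41 (SE 0.13) that did not pass in edgeR (adjusted p = 0.127). It passed with DESeq2 (adjusted p = 0.0403) and with the Xist split as a covariate in edgeR (adjusted p = 0.0492). The exons of Cish overlap those of Gm17040 and Gm17041 over 740 bases (11.5% of its exon length), and as the sources used here do not give the strand setting of the counting, reads from these genes may not be told apart there.

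Start sites of 4 members (Cish, Socs1, Socs3 and Socs4) were matched in RefSeq's windows on GRCm38.p6, which run from 250 bases before to 50 bases after the start. The windows were searched for the STAT motif TTCNNNGAA, where N is any base and which reads the same on both strands. Cish held 2 matches, 2 bases apart and just after its RefSeq start, and Socs3 held 1 upstream of its RefSeq start. Both stretches are printed since Cish was called in DM and Socs3 varied most, and capitals mark the motif.
Cish, chr9:107296654-107296683, plus strand: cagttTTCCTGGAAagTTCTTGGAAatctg
Socs3, chr11:117969452-117969616, minus strand: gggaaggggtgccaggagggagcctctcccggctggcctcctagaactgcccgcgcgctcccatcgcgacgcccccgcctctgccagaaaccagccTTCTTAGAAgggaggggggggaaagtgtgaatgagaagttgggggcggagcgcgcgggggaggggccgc
The Cish stretch lies in the first exon of the gene as GENCODE annotates it. The Socs3 stretch lies outside annotated exons, with the motif at bases -154 to -146 from the RefSeq start. It is nonetheless within the span of the gene in GENCODE (117966079 to 117970047, minus strand), which begins further upstream than the RefSeq start. Of 32851 such windows of 27025 genes, 8.3% held the motif and 0.457% held it at least 2 times. The windows of Socs1 and Socs4 held no match, which says only that these letters are not in those 300 bases.

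Socs3, which binds the shared receptor gp130 and the G-CSF receptor and blocks their JAK kinases, had no call in any comparison and differed widely between mice of the same genotype. In DM mice it was at 14.2, 24.3, 23.3 and 13.4 CPM. In Srsf2P95H mice it was at 43.6, 128.6, 19.5 and 46.7 CPM, in Asxl1Tg mice at 58.6, 36.7, 11.8 and 82.3 CPM, and in WT mice at 50.9, 36.02, 42.4 and 4.41 CPM. All 4 DM mice were low, but each of the other genotypes had 1 mouse within or below the DM range. In DM against Srsf2P95H the log2 fold change was -1.66 (SE 0.75, edgeR adjusted p = 0.763), in DM against Asxl1Tg -1.33 (SE 0.75, adjusted p = 0.381) and in DM against WT -0.83 (SE 0.74, adjusted p = 0.478).

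The lowest and the highest Socs3 levels were in WT 4 and Srsf2P95H 2, which also had the lowest and the highest immediate-early level. The summed CPM of the 25 immediate-early genes was 2017 to 3506 in DM, 2943 to 15727 in Srsf2P95H, 2615 to 10062 in Asxl1Tg and 1045 to 13720 in WT. After subtraction of genotype means, Socs3 and the mean log2 level of these genes had Pearson's r = 0.78 (permutation test, two-sided p = 0.0170, 0.136 after adjustment over the 8 members) and Spearman's rho = 0.67 (permutation p = 0.0221, 0.0999 adjusted; 16 libraries). Without WT 4 and Srsf2P95H 2, r was 0.31 (permutation p = 0.536, 14 libraries), so the relation rests on those 2 libraries. With the immediate-early level as a covariate, the Socs3 value of DM against WT turned to 0.30 (SE 0.61, adjusted p = 0.774). No immediate-early gene was called by edgeR in any comparison, with at most 5 of 25 at an unadjusted p under 0.05. DESeq2 called 2 of 25 in DM against WT, 1 in DM against Srsf2P95H and 1 in transgene carriers, all lower.

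**Figure D4:**
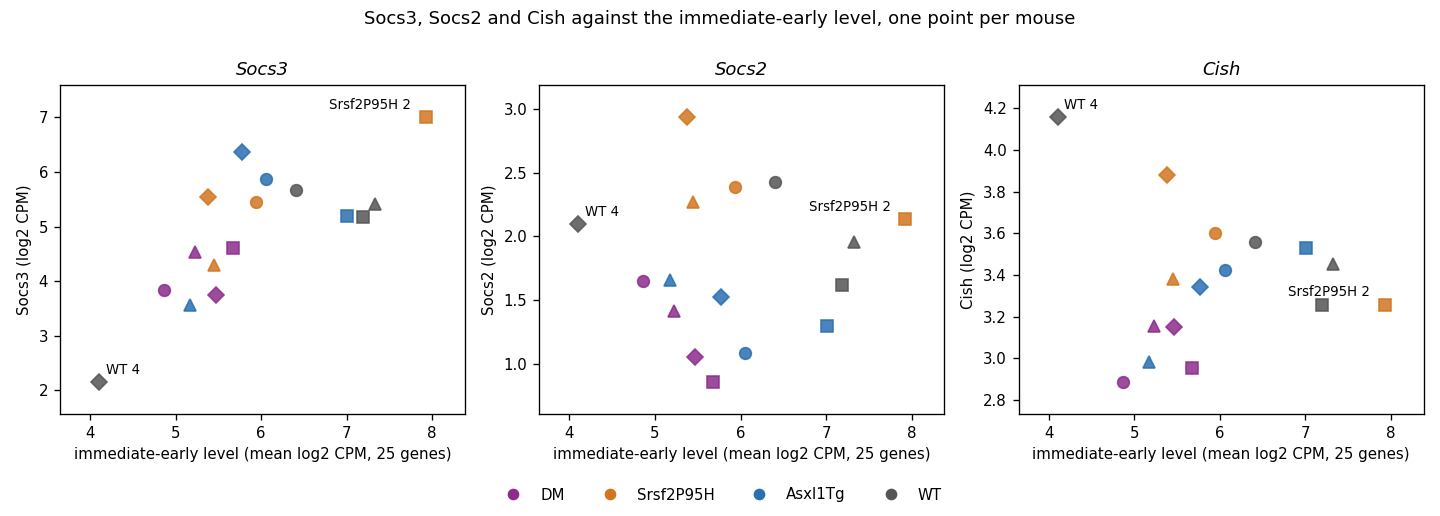
Log2 CPM of Socs3, Socs2 and Cish against the mean log2 CPM of 25 immediate-early genes, 1 point per mouse, with WT 4 and Srsf2P95H 2 named where they stand apart. Socs3 is lowest in WT 4 and highest in Srsf2P95H 2, whereas Cish is highest in WT 4 and Socs2 in DM and Asxl1Tg lies below the other genotypes at a similar immediate-early level.

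For Socs2 the same relation had the opposite sign, r = -0.51 (permutation p = 0.0832, 0.222 adjusted) and rho = -0.60 (permutation p = 0.0250, 0.0999 adjusted), and r was -0.65 without those 2 libraries (permutation p = 0.0148, 0.118 adjusted). None of the 8 members passed after adjustment. With the immediate-early level as a covariate, Socs2 in transgene carriers against non-carriers was at -1.01 (edgeR adjusted p = 0.00235). Among the 28 pairs of members, no correlation of deviations passed after adjustment over the pairs.

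Socs1, which blocks JAK kinases directly and is the main brake on interferon signalling, had no call in any comparison. In DM mice it was at 2.92, 4.11, 4.08 and 3.28 CPM. In Srsf2P95H mice it was at 4.34, 3.22, 3.15 and 4.92 CPM, in Asxl1Tg mice at 4.19, 4.64, 4.15 and 7.55 CPM, and in WT mice at 4.08, 3.67, 4.56 and 4.14 CPM. Asxl1Tg 4 was high and all other libraries were below 5 CPM, with all DM mice under all Asxl1Tg mice. All DM libraries were below all Asxl1Tg libraries in 4.16% of all genes, and the log2 fold change of Socs1 there was -0.51 (SE 0.21, edgeR adjusted p = 0.216). In DM against Asxl1Tg, 0 of 8 members were called by edgeR or DESeq2, against 1.08% of all genes called. At an unadjusted edgeR p under 0.05 there were 3 of 8 members, beside 4043 of 22749 genes.

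Socs4 and Socs5, close relatives that act on the EGF receptor in cell lines, differed little. Socs4 was at 80.9 ± 7.67 CPM in DM, 75.9 ± 10.1 CPM in Srsf2P95H, 68.2 ± 5.58 CPM in Asxl1Tg and 72.0 ± 6.07 CPM in WT (SD, n = 4 each). All DM mice were above all Asxl1Tg mice, as in 7.35% of all genes, with a log2 fold change of 0.25 (SE 0.10, edgeR adjusted p = 0.201). In carriers of the Srsf2 mutation against non-carriers its log2 fold change was 0.16 (SE 0.07, edgeR adjusted p = 0.133), and without Srsf2P95H 2 it was 0.20 and passed (edgeR adjusted p = 0.0389). In that comparison 0 of 8 members were called by edgeR or DESeq2, against 10.6% of all genes called. At an unadjusted edgeR p under 0.05 there was 1 of 8 members, beside 6631 of 22749 genes. Socs5 was at 58.2 ± 2.21 CPM in DM, 51.6 ± 2.46 CPM in Srsf2P95H, 48.0 ± 3.20 CPM in Asxl1Tg and 56.5 ± 11.4 CPM in WT (SD, n = 4 each). All DM mice were above all Asxl1Tg and all Srsf2P95H mice, as in 7.35% and 2.86% of all genes, with log2 fold changes of 0.28 (SE 0.11, edgeR adjusted p = 0.178) and 0.17 (SE 0.11, edgeR adjusted p = 0.903). Socs5 in Asxl1Tg against WT was at -0.24 (SE 0.11, edgeR adjusted p = 0.204) and passed only without WT 1 (-0.34, adjusted p = 0.0472).

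Socs6, which binds the receptor kinase Kit, and Socs7, linked to insulin signalling, were the steadiest members. Socs6 was at 44.8 ± 3.27 CPM in DM, 43.6 ± 2.81 CPM in Srsf2P95H, 40.7 ± 1.98 CPM in Asxl1Tg and 42.9 ± 2.45 CPM in WT (SD, n = 4 each). Socs7 was at 58.0 ± 2.59 CPM in DM, 57.9 ± 1.64 CPM in Srsf2P95H, 56.6 ± 3.95 CPM in Asxl1Tg and 60.1 ± 6.07 CPM in WT (SD, n = 4 each). Their log2 fold changes over the 7 comparisons other than the interaction were small, from -0.09 to 0.14, with SEs of 0.05 to 0.07.

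With the Srsf2 mutation alone against WT, 0 of 8 members were called by edgeR or DESeq2, against 0.506% of all genes called. An unadjusted edgeR p under 0.05 was found for 0 of 8 members, beside 5757 of 22749 genes. Socs2 had the smallest edgeR adjusted p (0.271). In the interaction, which asks whether the effect of both lesions differs from the sum of each alone on the log2 scale, edgeR called 0 of 8 members and 0 genes in all (0%), with 2670 genes and 1 member at an unadjusted p under 0.05, and 0 of 8 members in each of the 25 alternatives. Socs5 had the smallest adjusted p (0.41, SE 0.15, adjusted p = 0.378), and Socs3 the most negative value, at -2.17 (SE 1.05, adjusted p = 0.449). Over the 8 members the median log2 fold change was -0.12 in DM against WT, beside -0.02 over all genes tested, and -0.04 in Asxl1 carriers against non-carriers, beside -0.02 over all genes tested.

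**Figure D5:**
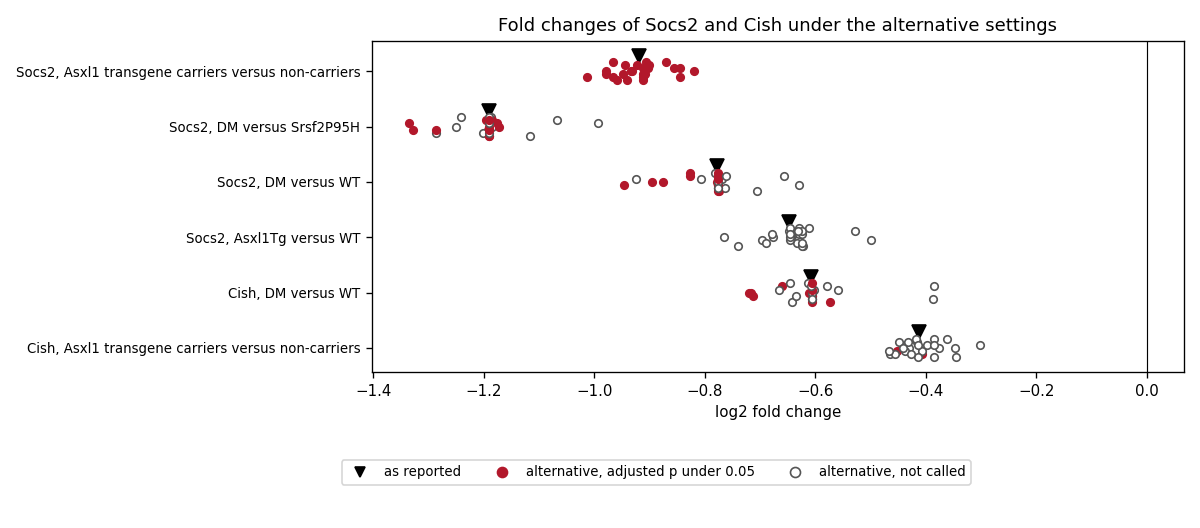
Log2 fold change of Socs2 and Cish in 6 gene and comparison pairs, as reported (triangle) and under each alternative setting (circles, filled red where the adjusted p is under 0.05). Socs2 in Asxl1 transgene carriers stays filled in all 25 alternatives, whereas Socs2 is called in 14 of 26 alternatives in DM versus WT and in 14 of 26 in DM versus Srsf2P95H, and Cish in 12 of 26 in DM versus WT.

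Few genes around the SOCS proteins in the pathway were called. Of the 11 JAK kinases and STAT factors, 0 were called by edgeR in any of the 8 comparisons, with 0 to 3 at an unadjusted p under 0.05, and DESeq2 called 2 in Asxl1Tg against WT and 1 in Srsf2 mutation carriers, all lower. Their summed level was 1540 to 1674 CPM in DM, 1572 to 1679 CPM in Srsf2P95H, 1488 to 1637 CPM in Asxl1Tg and 1542 to 1670 CPM in WT. Stat5b, a main activator of Cish and Socs2, was at 210.1 ± 13.4 CPM in DM, 203 ± 19.2 CPM in Srsf2P95H, 207 ± 13.3 CPM in Asxl1Tg and 217 ± 12.9 CPM in WT (SD, n = 4 each). None of the 14 cytokine ligand genes that passed the filter, of 20 listed, was called by edgeR, with 0 to 3 at an unadjusted p under 0.05 in each comparison. DESeq2 called 2 of them in Srsf2 mutation carriers, both lower.

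Of 36 cytokine receptor genes, 3 were called in DM against WT, where 9.39% of all genes tested were called, so the count is near the background. Osmr, the oncostatin M receptor, rose in DM (log2 fold change 2.38, SE 0.58, edgeR adjusted p = 0.0219) but was low throughout, at 0.909 ± 0.672 CPM in DM and 0.176 ± 0.109 CPM in WT (SD, n = 4 each). Ifngr2, a chain of the interferon gamma receptor, rose to 39.1 ± 3.06 CPM in DM, against 30.1 ± 1.48 CPM in WT (log2 fold change 0.38, SE 0.11, adjusted p = 0.0395), a call lost with library size only (adjusted p = 0.128) and with the stricter filter of 1 CPM in 4 libraries (adjusted p = 0.0597). Flt3, the receptor that marks lymphoid-primed progenitors, fell to 289 ± 58.6 CPM in DM, against 558 ± 169 CPM in WT (log2 fold change -0.95, SE 0.23, adjusted p = 0.0239). Il6st, which encodes gp130, rose in Srsf2 mutation carriers against non-carriers (log2 fold change 0.30, SE 0.09, adjusted p = 0.0424), the only receptor called there, and was not called with library size only (adjusted p = 0.187) or with the stricter filter (adjusted p = 0.0760).

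Of 8 genes listed for ligases of elongins and cullins, the kind that the SOCS box recruits, 3 rose in Srsf2 mutation carriers against non-carriers. There 10.6% of all genes tested were called, and 0 of the 8 were called by edgeR in the other 7 comparisons. At an unadjusted p under 0.05 there were 6 of 8 in Srsf2P95H against WT and 0 to 3 in the other 6 comparisons, and DESeq2 called 2 in Srsf2P95H against WT and 1 in DM against WT, all higher. The 3 that edgeR called in Srsf2 mutation carriers were the cullins Cul2 (log2 fold change 0.36, SE 0.08, adjusted p = 0.0180) and Cul5 (0.21, SE 0.06, adjusted p = 0.0293) and the elongin gene Eloc (0.25, SE 0.07, adjusted p = 0.0334). The list does not single out the cullin that SOCS proteins bind, so not every gene in it need serve them. Cul5 was at 72.8 ± 7.42 CPM in DM and 73.9 ± 7.57 CPM in Srsf2P95H, against 60.3 ± 2.53 CPM in Asxl1Tg and 66.7 ± 2.05 CPM in WT (SD, n = 4 each). All 3 kept their sign under every scaling tried, and none passed with library size only, a setting that left a median log2 fold change of -0.11 over all genes. With the stricter filter Cul2 was called, and Eloc (adjusted p = 0.0520) and Cul5 (adjusted p = 0.0604) were not. Of 18 other negative regulators of JAK-STAT signalling, 1 was called in Srsf2 mutation carriers, no larger a share than the 10.6% of all genes. It was the Ras inhibitor gene Spred1 (log2 fold change 0.23, SE 0.07, adjusted p = 0.0434), which was not called with library size only (adjusted p = 0.213) or with the stricter filter (adjusted p = 0.0766).

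Of 23 other genes known to respond to STATs, 2 were called in Asxl1 transgene carriers against non-carriers, where 1.85% of all genes tested were called. The cyclin gene Ccnd1 rose (log2 fold change 0.60, SE 0.10, adjusted p = 0.00346), at 49.3 ± 6.81 CPM in DM and 52.5 ± 4.02 CPM in Asxl1Tg, against 29.9 ± 4.87 CPM in Srsf2P95H and 37.4 ± 8.32 CPM in WT (SD, n = 4 each). The interferon-induced GTPase gene Irgm1 fell (-0.23, SE 0.05, adjusted p = 0.0136), a call lost with library size only (adjusted p = 0.0613). The median log2 fold change of the 23 genes in that comparison was -0.02, the same as over all genes tested. Pim1, a STAT5 target kinase gene, was at 152 ± 24.0 CPM in DM, 247 ± 59.4 CPM in Srsf2P95H, 206 ± 50.1 CPM in Asxl1Tg and 196 ± 83.0 CPM in WT (SD, n = 4 each), with no call.

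Interferon-stimulated genes moved with Socs2 in the same comparison. Of 20 such genes, 13 fell in Asxl1 transgene carriers against non-carriers and 0 rose, with a median log2 fold change of -0.65 over the list, beside -0.02 over all genes tested and 0.444% of all genes called lower. With library size only, 10 of the 20 were called lower. Ifi44 fell to 13.7 ± 2.56 CPM in DM and 8.39 ± 1.58 CPM in Asxl1Tg, against 24.8 ± 4.41 CPM in Srsf2P95H and 18.5 ± 2.80 CPM in WT (SD, n = 4 each; edgeR adjusted p = 0.000191). Ifit1 was at 3.86 ± 0.955 CPM in DM and 3.55 ± 0.449 CPM in Asxl1Tg, against 8.85 ± 3.14 CPM in Srsf2P95H and 7.83 ± 0.855 CPM in WT (log2 fold change -1.17, SE 0.16, edgeR adjusted p = 0.000725). Socs1, the member tied to interferon signalling, was at 4.36 ± 1.40 CPM in carriers and 4.01 ± 0.626 CPM in non-carriers (SD, n = 8 each; log2 fold change 0.10, SE 0.15, adjusted p = 0.781). Some other lists also had medians below 0 in carriers, with none of their genes called by edgeR. The 9 eosinophil markers had a median log2 fold change of -1.67, with 6 of 9 at an unadjusted p under 0.05, and summed to 59.4 to 124 CPM in DM and 48.9 to 312 CPM in Asxl1Tg, against 78.0 to 486 CPM in Srsf2P95H and 42.8 to 1580 CPM in WT. The 25 immediate-early genes had a median of -0.89, with 5 of 25 at an unadjusted p under 0.05. The B lineage markers had a median of -1.05, the T and natural killer markers -0.58 and the mast cell and basophil markers -0.35. Medians were above 0 for megakaryocyte (0.38), monocyte and macrophage (0.13) and mature neutrophil markers (0.0015). The part of any of these lists in the fall of Socs2 or of the interferon-stimulated genes was not tested beyond the fits of Socs2 given above. In bulk RNA, fewer cells of a type and less RNA per cell cannot be told apart, for Socs2 as for these genes.

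By Pearson's r of log2 CPM over the 16 libraries, among 12098 genes, the genes most like Socs2 were Chek2 (r = 0.79), Abl2 (0.79) and Chchd7 (0.79). Those most like Cish were Lcor (0.87), Runx2os2 (0.86) and Vmn2r84 (0.85), and those most like Socs1 were Tha1 (0.90), Gramd4 (0.86) and Zfp651 (0.85). Socs3 was most like Pim1 (0.91), Atp10a (0.89) and Atf4 (0.89). Socs4 was most like Zfp322a (0.96), Socs5 like Mmaa (0.93), Socs6 like Fam199x (0.89) and Socs7 like Gpr107 (0.90). These values describe shared variation between mice, genotype included. The libraries they rest on differ in depth, and WT 4 and Srsf2P95H 2, which stood apart, are among them.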

How the data were processed

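The deposited values are the authors' raw counts for 55291 gene symbols in 16 libraries, not normalized and checked here to be whole numbers. Per the submitters' processing notes, the tools were HTSeq 0.11.2, STAR 2.7.0e, Trimmomatic 0.38 and FastQC on mm10; the sources used here give neither annotation release nor strand setting. Column names match the sample titles except those of Asxl1Tg, which carry an abbreviated form. Total counts were 82.99 to 127.6 M per library (M, megacounts), and counting error is part of the spread between mice. Depth went with genotype in part. The DM libraries had 113.8 to 127.6 M and WT 3 had 124.0 M, and all others had at most 104.8 M. Replicates are individual mice.

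Genes were tested in R 4.3.3 with edgeR 4.0.16 (filterByExpr, minimum count 10; TMM; robust quasi-likelihood fit on all 16 libraries) and Benjamini-Hochberg adjustment over 22749 genes in each of 8 comparisons, called at an adjusted p under 0.05. The pooled comparisons average the effect of one lesion with and without the other, so the comparisons share libraries. Alternatives were DESeq2 1.42.0, no filter on low counts, a filter of 1 CPM in 4 libraries, library size only, RLE factors, the compared groups only, the replicate block, an immediate-early covariate, an Xist covariate (above 100 CPM), each library left out, and WT 4 and Srsf2P95H 2 left out together. The method was tested on simulated data. Correlations used deviations from genotype means of log2 CPM (prior count 2) and 100000 permutations in Python 3.11.15 with NumPy 2.4.6. Positions and lengths came from GENCODE M21 and start windows from RefSeq (GRCm38.p6). All 274 entries of 19 gene lists, written from textbook knowledge, were matched. All 8 members were named, with the called members of the pathway lists and the 3 genes most alike. The members and lists were chosen with earlier results of these data known. Replicate numbers did not pair the libraries: after subtraction of group means, the 24 pairs that share a number had r from -0.293 to 0.295. No 2 libraries of a group agreed within sampling noise (chi-square per degree of freedom 34.5 to 157.5).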

Additional observations from a re-analysis of the deposited data

Results flagged for a closer look

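Socs1 in Asxl1Tg 4 was at 7.55 CPM, far from the other 3 Asxl1Tg libraries, which were at 4.15 to 4.64 CPM. The gap made up 0.854 of the range of the group, above Dixon's limit for 4 samples. It was the 1 case among 32 combinations of a member and a genotype, and chance gives such a case in about 1 in 20. Without that library the Socs1 log2 fold change of Asxl1Tg against WT was 0.07, against 0.32 with it.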

How the results depend on the processing

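Socs2 in Asxl1 transgene carriers against non-carriers was called in all 25 alternatives. The number of members called in DM against WT (2) was 0 with no filter on low counts, with the compared groups only and without both WT 4 and Srsf2P95H 2, and ran from 0 to 2 when 1 library was left out. In DM against Srsf2P95H it (1) was 0 with library size only, with the compared groups only and without both libraries, and 0 to 1 when 1 library was left out. In Asxl1 carriers it (1) was 2 with DESeq2 and with the Xist covariate. In Srsf2 carriers it (0) was 1 without both libraries and 0 to 1 when 1 library was left out, and in Asxl1Tg against WT it (0) was 0 to 1 when 1 library was left out. The cause of these shifts was not tested. The replicate block changed no call of a member, with Socs2 in Asxl1 carriers at -0.91 (edgeR adjusted p = 0.00523). Of 16 libraries, 3 correlated best with one of their own number.

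Changes of sign touched uncalled log2 fold changes only. With library size only, these were in Srsf2P95H against WT Socs4 (-0.0357) and Socs6 (-0.0867), in DM against WT Socs5 (-0.0676) and Socs6 (-0.0352), in DM against Asxl1Tg Socs7 (-0.0337), in Asxl1 carriers Socs4 (-0.00522), and in Srsf2 carriers Socs5 (-0.0210) and Socs6 (-0.00973). With the stricter filter they were Socs6 in Srsf2P95H against WT (-0.0189), Socs5 in DM against WT (-0.0103) and Socs7 in DM against Asxl1Tg (-0.0111) and DM against Srsf2P95H (-0.00193). With the immediate-early covariate they were in DM against WT Socs3 (0.297) and Socs5 (-0.0196), in DM against Srsf2P95H Socs7 (-0.0331), in Asxl1 carriers Socs3 (0.185) and Socs4 (-0.0353), and in Srsf2 carriers Socs3 (0.112). Without both WT 4 and Srsf2P95H 2 they were in Srsf2P95H against WT Socs1 (0.0114), Socs3 (-0.235), Socs5 (0.00130), Socs7 (0.00702) and Cish (0.209), in DM against WT Socs7 (0.0199), in Asxl1 carriers Socs4 (-0.00814) and Socs5 (0.0238), and in Srsf2 carriers Socs7 (0.0227).

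When 1 library was left out, signs changed within these ranges. In Srsf2P95H against WT they were Socs1 (-0.201 to 0.0195), Socs4 (-0.00481 to 0.163), Socs6 (-0.0236 to 0.0631), Socs7 (-0.0940 to 0.0164) and Cish (-0.225 to 0.124). In DM against WT they were Socs5 (-0.0583 to 0.165) and Socs7 (-0.0899 to 0.0207), and in DM against Asxl1Tg Socs7 (-0.0119 to 0.0783). In DM against Srsf2P95H they were Socs1 (-0.209 to 0.0118), Socs6 (-0.0102 to 0.0886) and Socs7 (-0.0210 to 0.0220). In Asxl1 carriers they were Socs1 (-0.0222 to 0.166), Socs4 (-0.0346 to 0.0592), Socs5 (-0.0833 to 0.0285) and Socs6 (-0.0362 to 0.0182), and in Srsf2 carriers Socs7 (-0.0343 to 0.0273).

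The number of all genes called, the background of the counts above, moved more. It ran from 73 to 2330 in Asxl1Tg against WT (428), from 0 to 2602 in Srsf2P95H against WT (115), from 586 to 3914 in DM against WT (2135) and from 10 to 1168 in DM against Asxl1Tg (245). It ran from 20 to 234 in DM against Srsf2P95H (56), from 0 to 52 in the interaction (0), from 312 to 1087 in Asxl1 carriers (420) and from 914 to 3813 in Srsf2 carriers (2420). Library size only shifted the median of all genes in Srsf2P95H against WT by -0.11 on the log2 scale, and turned the calls there to 40 higher and 177 lower, from 60 and 55. In DM against WT the calls were then 551 higher and 1492 lower, from 1058 and 1077, and in Srsf2 carriers 454 and 1536, from 1494 and 926. Socs1, Socs2 and Cish rest on 197 to 1972 counts per library.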
